A study of Mus musculus with 4 samples.

Results

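The cholesterol synthesis and SREBP pathway was followed through 30 genes: 20 enzymes from the acetyl-CoA thiolase to the last reductase, 7 genes of the SREBP control system, and 3 genes of sterol transport and disposal. Members were chosen by gene symbol, and every probe whose gene name in the scanner files was a member symbol was taken. Of the 30 genes, 29 had a probe, with 61 probes in all, out of 24776 named genes and 56605 probes on the array. No probe for Acat2, the thiolase, was matched by symbol, so its level was not analysed here.

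Total RNA came from mice aged 24 weeks, either wild-type or transgenic animals that the submitters call MSA Tg mice, on a mixed background of C57BL/6, 129 and C3H that both genotypes shared. Multiple system atrophy (MSA) is a neurodegenerative disease with alpha-synuclein deposits in oligodendrocytes. The labels give neither the transgene nor its promoter, and the prefix PLP in the sample titles is not explained there. The 4 groups were wild-type brainstem/cerebellum (called hindbrain below), transgenic hindbrain, wild-type spinal cord and transgenic spinal cord, each with 1 array in 1 colour. With 1 array in a group, a difference within a tissue has no replicate and was not tested, and no p-value is given. A fit of genotype over both tissues, which would take the difference between tissues as its error, was not run. Whether a sample was 1 animal or a pool, and whether the tissues of 1 genotype share animals, is not given in the labels.

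The brain makes nearly all of its own cholesterol, because lipoproteins of the blood do not cross the blood-brain barrier. Oligodendrocytes use much of it for myelin, and astrocytes make it for neurons. The enzymes sit mainly in the endoplasmic reticulum and are switched together: when membrane sterol falls, SCAP carries the precursor of SREBP-2 to the Golgi apparatus, proteases S1P and S2P cut it, and the freed fragment turns on nearly every gene of the pathway, while INSIG proteins hold SCAP back when sterol is plentiful.

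Among the members whose promoters follow, Idi1, Nsdhl and Srebf2 were at least 2-fold lower in the transgenic spinal cord. Sc5d had the lowest genotype difference in hindbrain, and Mylip the highest in both tissues. Hmgcs1 passed 2-fold in neither tissue, and it was the only member with a match to the sterol element described below. These promoters are shown because SREBP works on promoters together with the factors NF-Y and Sp1. They were taken from RefSeq for assembly GRCm38.p6 and run 5′ to 3′ over the 250 bases before each gene's start. Capitals mark matches on either strand to the CCAAT box bound by NF-Y (CCAAT, or ATTGG on the other strand), to the GC box bound by Sp1 (GGGCGG, or CCGCCC) and to a loose form of the sterol regulatory element (TCACNCCAC).
Hmgcs1, chr13:119690101-119690350, plus strand: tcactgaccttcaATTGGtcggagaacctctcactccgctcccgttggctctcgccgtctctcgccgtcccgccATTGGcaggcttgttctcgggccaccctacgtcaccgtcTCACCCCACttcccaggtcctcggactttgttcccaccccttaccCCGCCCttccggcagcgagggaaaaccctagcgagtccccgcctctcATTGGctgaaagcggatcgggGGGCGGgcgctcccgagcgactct
Idi1, chr13:8885356-8885605, plus strand: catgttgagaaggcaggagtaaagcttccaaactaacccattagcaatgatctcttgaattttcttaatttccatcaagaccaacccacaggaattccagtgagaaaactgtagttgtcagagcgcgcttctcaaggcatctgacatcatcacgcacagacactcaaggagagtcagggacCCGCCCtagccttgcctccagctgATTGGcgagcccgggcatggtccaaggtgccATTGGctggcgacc
Nsdhl, chrX:72918271-72918520, plus strand: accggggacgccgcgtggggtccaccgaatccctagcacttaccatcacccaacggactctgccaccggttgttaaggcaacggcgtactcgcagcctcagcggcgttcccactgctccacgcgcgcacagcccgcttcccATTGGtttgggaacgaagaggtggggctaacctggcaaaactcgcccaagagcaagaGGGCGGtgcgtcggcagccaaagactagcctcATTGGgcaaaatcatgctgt
Sc5d, chr9:42264301-42264550, minus strand: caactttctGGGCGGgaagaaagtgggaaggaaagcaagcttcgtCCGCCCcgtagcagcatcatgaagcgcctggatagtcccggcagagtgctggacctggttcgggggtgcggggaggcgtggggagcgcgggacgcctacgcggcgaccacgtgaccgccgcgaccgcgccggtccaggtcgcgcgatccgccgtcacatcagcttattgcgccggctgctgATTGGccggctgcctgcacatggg
Srebf2, chr15:82147019-82147268, plus strand: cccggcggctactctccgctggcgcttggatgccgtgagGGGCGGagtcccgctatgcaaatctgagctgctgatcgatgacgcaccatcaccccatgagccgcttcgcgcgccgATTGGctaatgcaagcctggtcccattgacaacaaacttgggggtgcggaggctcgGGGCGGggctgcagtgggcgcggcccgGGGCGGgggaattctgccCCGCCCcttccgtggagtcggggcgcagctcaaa
Mylip, chr13:45389492-45389741, plus strand: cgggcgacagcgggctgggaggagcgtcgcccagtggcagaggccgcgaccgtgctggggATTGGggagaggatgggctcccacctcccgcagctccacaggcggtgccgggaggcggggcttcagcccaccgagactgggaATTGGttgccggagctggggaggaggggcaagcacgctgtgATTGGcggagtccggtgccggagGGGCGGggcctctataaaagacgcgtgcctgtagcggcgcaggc
The Hmgcs1 window held 1 match to the loose sterol element, 3 CCAAT boxes and 2 GC boxes, and each of the other 5 windows held at least 1 CCAAT box and 1 GC box. Over 300 bases, the 250 before and 50 after the start, 26 of the 30 members had a promoter in the table, and Fdps, Fdft1, Sqle and Stard4 had none. CCAAT matched in 22 of these 26 genes (84.6%), against 42.2% of 11769 genes that were above background on all 4 arrays. GGGCGG matched in 23 of 26 (88.5%), against 64.5% of the same genes. The loose sterol element matched in Hmgcs1 alone, 3.85% of the members against 1.41%. Its strict form of 10 letters matched in none of the 26 members, against 0.0595% of the same 11769 genes. A match describes the letters in the window and does not show that a factor binds there.

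Levels are given as log2 of an array's background-corrected signal minus the 75th percentile of that array, so that 0 is a signal at the 75th percentile and the levels of different genes cannot be set against each other. For a gene with several probes the brightest stood for it. Between 59.2% and 64.0% of 59305 spots per array were well above background, no spot was saturated, and all 29 members were well above background on all 4 arrays. Repeated spots of 1 probe gave a technical SD of a difference of 0.09 for probes above 2 on this scale, 0.10 between 0 and 2, 0.13 between -2 and 0, and 0.24 to 0.49 below that. It covers spots within an array and leaves out animals and hybridisations. The wild-type spinal cord array lay alone on a second slide, so genotype and slide cannot be told apart in spinal cord, while both hindbrain arrays lay on 1 slide. The tissue labels were borne out: 8 cerebellum markers summed to 249 and 251 times the 75th percentile in hindbrain against 14.8 and 9.91 in cord, and 7 Hox genes of the spinal cord to 0.354 and 0.404 against 35.4 and 20.4 (wild type first).

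In hindbrain, the pathway stood a little lower in the transgenic sample, with no member past 2-fold. Of 29 members 26 had a lower level in the transgenic than in the wild-type sample, and the median difference was -0.27, beside -0.08 over 16106 genes, of which 62.4% were below 0. No member was at least 2-fold higher (2.69% of all genes were) or lower (0.286%). The lowest was Sc5d at -0.81 and the highest Mylip at 0.26. Below 0 by more than 2 technical SDs were 17 members, and none was above 0 by as much. The share of all genes this far from 0 was not counted, so these counts describe the members only.

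In spinal cord, 6 of 29 members were at least 2-fold lower in the transgenic sample: Idi1, Fdps, Fdft1, Nsdhl, Srebf2 and Stard4. Over all 16360 genes 6.31% were as much lower and 8.51% as much higher, and no member was. The median over members was -0.52 beside -0.05 over all genes, and 23 members were below 0 against 53.8% of all genes. By more than 2 technical SDs 21 members were lower and 3 higher, again without a count over all genes. In bulk tissue, fewer cells of a type and less RNA per cell cannot be told apart.

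**Figure D1:**
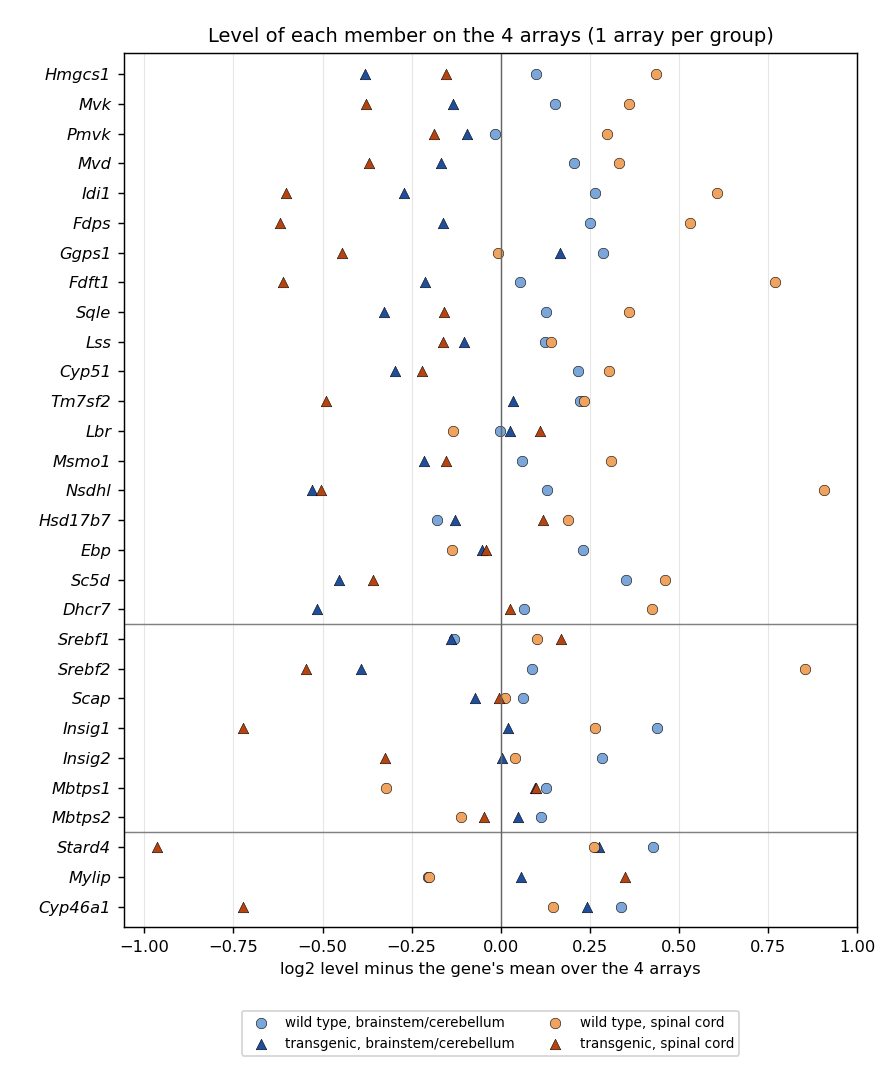
Level of each of the 29 members on the 4 arrays, as log2 level minus that gene's mean over the 4 arrays (x axis), with genes in pathway order from top to bottom and lines between synthesis, regulation, and transport and disposal. Circles are wild type, triangles transgenic, blue hindbrain and orange spinal cord, 1 array each. Most circles lie to the right of the triangles of the same gene, and in 19 of 29 members both circles lie to the right of both triangles.

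In 19 of 29 members (65.5%) both wild-type arrays stood above both transgenic arrays, whatever the tissue, which held for 23.2% of 15708 genes above background on all arrays. The reverse held for 2 members, Lbr and Mylip (6.90%, against 13.1%). Among the 19 synthesis enzymes measured the first count was 15 and among the 7 regulators 4. The wild-type cord array was the highest of the 4 for 17 members (58.6%, against 27.1% of all genes), 16 of them synthesis enzymes. The transgenic hindbrain array was the highest for none, against 12% of all genes.

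The mevalonate arm turns acetyl units into isoprenoids. Hmgcs1, which makes HMG-CoA, had levels of 4.58 in wild-type and 4.10 in transgenic hindbrain, and 4.91 and 4.33 in cord. The transgenic sample was thus lower in both tissues, by 1.40-fold (-0.48 on the log2 scale) and 1.5-fold (-0.59). Its other probe was above background on the transgenic hindbrain array alone, where it was at least 1.68-fold higher. Mvk, mevalonate kinase, stood at 2.35 and 2.06 in hindbrain and 2.55 and 1.81 in cord, differences of -0.29 and -0.74. Its second probe gave -0.10 and -0.38, the same direction with smaller values. Pmvk, the next kinase, differed by -0.08 in hindbrain, within the technical SD, and by -0.49 in cord, with -0.13 and -0.90 at its second probe. Mvd, which makes isopentenyl diphosphate, was at -0.47 and -0.84 in hindbrain and -0.34 and -1.04 in cord, differences of -0.37 and -0.70.

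Isoprenoid assembly held Idi1 and Fdps among the 6 members past 2-fold in cord. Idi1, the isomerase that makes dimethylallyl diphosphate (probe at chr13:8891524-8891583, mm9), had levels of 2.11 in wild-type and 1.58 in transgenic hindbrain, and 2.46 and 1.25 in cord. It was 1.45-fold lower in the transgenic hindbrain (-0.54) and 2.31-fold lower in the transgenic cord (-1.21), and 3.08% and 3.91% of all genes stood lower. Fdps, which makes farnesyl diphosphate (chr3:88897549-88897608, mm9), stood at 3.32 and 2.91 in hindbrain and 3.60 and 2.45 in cord, so it was 1.33-fold and 2.22-fold lower in the transgenic samples (-0.41 and -1.15). Both genes were seen by 1 probe only.

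Fdft1, squalene synthase, commits farnesyl diphosphate to sterols, and both of its probes passed 2-fold in cord. Its brighter probe (chr14:63765457-63765516, mm9) stood at 2.91 in wild-type and 2.65 in transgenic hindbrain, and at 3.63 and 2.25 in cord. The transgenic cord was 2.60-fold lower (-1.38), and hindbrain differed by -0.27. The second probe spans an exon junction between 63765750 and 63769990 on the minus strand of chromosome 14 and gave 1.54 and 1.02 in hindbrain and 1.86 and 0.60 in cord, differences of -0.52 and -1.26. That probe is shown with the second probe of Tm7sf2, described next, because each of these 2 probes of 60 bases gave a cord value past 2-fold without standing for its gene. The dim second probe of Nsdhl did so too (-1.28) and is not shown. Both read 5′ to 3′ as the scanner files give them.
Fdft1, probe A_55_P2033250: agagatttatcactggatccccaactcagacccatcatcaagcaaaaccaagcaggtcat
Tm7sf2, probe A_55_P2171406: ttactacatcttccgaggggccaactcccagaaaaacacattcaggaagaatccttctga
Ggps1, which makes geranylgeranyl diphosphate for protein prenylation and so leaves the sterol arm, differed by -0.12 and -0.44. Its 6 probes ranged from -0.12 to 0.25 in hindbrain and from -0.60 to 0.14 in cord, and so do not share a direction.

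From squalene to lanosterol and its demethylation, differences were alike in size in both tissues. Sqle, squalene epoxidase, an early controlled step, stood at 2.77 and 2.31 in hindbrain and 3.0 and 2.48 in cord (-0.46 and -0.52). Lss, lanosterol synthase, differed by -0.23 and -0.30, and its other probes by -0.25 and -0.29 and by -0.74 and -0.30. Cyp51, lanosterol demethylase, stood at 1.1 and 0.59 in hindbrain and 1.19 and 0.67 in cord, a difference of -0.51 and -0.52, with -0.43 and -0.54 at its second probe. None of the 3 passed 2-fold. A second Sqle probe was not well above background on any array.

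The C14 reductases, Tm7sf2 and Lbr, catalyse the same step, and their cord values lay apart. Tm7sf2 stood at 1.53 and 1.34 in hindbrain and 1.54 and 0.81 in cord (-0.19 and -0.73). Its second probe, at chr19:6063541-6063600 on the minus strand of mm9, gave -1.37 and -1.47 in hindbrain and -0.94 and -2.28 in cord, so that it was 2.53-fold lower in the transgenic cord (-1.34) and differed by -0.10 in hindbrain. Lbr, which is also a lamin receptor of the nuclear envelope, was at 1.34 and 1.37 in hindbrain and 1.21 and 1.46 in cord, differences of 0.03 and 0.24. Its sign turned with median scaling in hindbrain (-0.15) and with spike-in scaling in cord (-0.22).

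The enzymes of C4 demethylation ranged from differences near 0 to the lowest values of the pathway. Nsdhl, the sterol dehydrogenase of this step (chrX:70203236-70203295, mm9), had levels of -0.98 in wild-type and -1.64 in transgenic hindbrain, and of -0.20 and -1.61 in cord. It was the lowest member in cord, 2.66-fold lower (-1.41), and the second lowest in hindbrain, 1.58-fold lower (-0.66), with 2.39% and 1.55% of all genes below it. Its dim second probe gave -1.28 in cord but 0.43 in hindbrain, where the technical SD for its signal is 0.24. Msmo1, the methyl sterol oxidase, stood at 3.66 and 3.39 in hindbrain and 3.91 and 3.45 in cord (-0.27 and -0.46), with -0.47 and -0.82 at its second probe. A dim Msmo1 probe, A_65_P06678, was at -1.76 in transgenic hindbrain, not well above background in wild-type hindbrain, and at -4.69 and -4.90 in cord. It was thus at least 11.1-fold higher in transgenic hindbrain, unlike the brighter probes. Hsd17b7, the ketoreductase, differed by 0.05 and -0.07, both within the technical SD.

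The last enzymes shift and reduce the double bonds of the sterol ring. Ebp, the sterol isomerase, stood at 3.39 in wild-type and 3.11 in transgenic hindbrain, and at 3.02 and 3.12 in cord. It was lower in the transgenic hindbrain (-0.28) and higher in the transgenic cord by about the technical SD (0.10), and its second probe gave -0.29 and -0.05. Sc5d, the sterol desaturase (chr9:42062857-42062916, mm9), had levels of 1.90 in wild-type and 1.09 in transgenic hindbrain, and 2.01 and 1.19 in cord. It was lower by about as much in both tissues, 1.75-fold (-0.81) and 1.76-fold (-0.82), and only 0.708% of all genes had a lower difference in hindbrain against 9.78% in cord. Its second probe gave -0.47 and -0.83. Dhcr7, 7-dehydrocholesterol reductase, was at -0.37 and -0.95 in hindbrain and -0.01 and -0.41 in cord, differences of -0.58 and -0.40, with 2.40% of genes below it in hindbrain and 26.6% in cord.

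**Figure D2:**
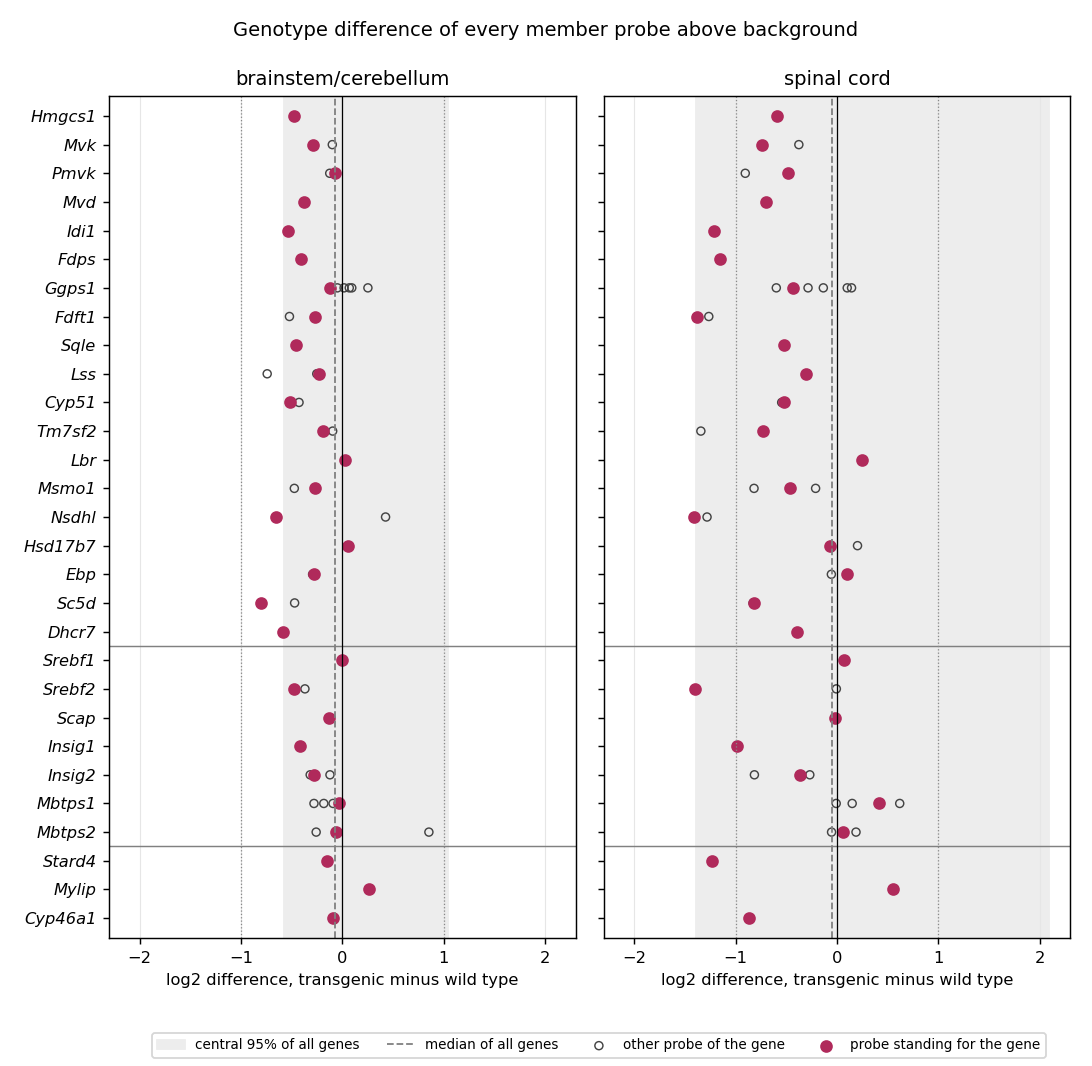
Genotype difference (x axis, log2 transgenic minus wild type) of every member probe well above background on both arrays, in hindbrain (left) and spinal cord (right), with genes in pathway order. Filled points are the probe standing for the gene, open points its other probes, the band holds the central 95% of all genes, the dashed line is their median and dotted lines mark 2-fold. In hindbrain no filled point reaches a dotted line and the band runs from -0.58 to 1.04, while in cord 6 filled points lie beyond -1 and the band runs from -1.39 to 2.09.

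Counted by probe, 44 of 54 measured member probes were below 0 in hindbrain and 44 of 56 in cord, with medians of -0.24 and -0.39. None passed 2-fold in hindbrain, and 9 were at least 2-fold lower in cord. Of 16 genes with 2 or more measured probes, 3 had probes of opposite sign in hindbrain and 5 in cord. These counts were made for member probes only and were not set against all probes of the array. Of the 6 members past 2-fold in cord, Fdft1 and Nsdhl passed at 2 of 2 measured probes and Srebf2 at 1 of 2. Idi1, Fdps and Stard4 had 1 measured probe each, the one that made the call, so agreement between probes could not be seen.

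Among the regulators, the gene for SREBP-2, the factor that drives sterol synthesis, differed from the gene for SREBP-1, which drives fatty acid synthesis. Srebf2 (chr15:82035495-82035554, mm9) had levels of 1.29 in wild-type and 0.81 in transgenic hindbrain, and 2.06 and 0.66 in cord, so it was 1.39-fold lower (-0.48) and 2.64-fold lower (-1.40). Its second probe stood at -1.34 on both cord arrays (-0.01) and gave -0.37 in hindbrain. The cord call thus rests on 1 of 2 probes, and the mean over both was -0.70. Srebf1 stood at 3.24 on both hindbrain arrays and at 3.48 and 3.54 in cord, differences of -0.01 and 0.07.

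The anchors that hold SREBP in the endoplasmic reticulum were lower, and the escort differed by less. Insig1, itself a target of SREBP, had levels of -0.90 in wild-type and -1.32 in transgenic hindbrain, and -1.08 and -2.06 in cord. It was 1.34-fold lower (-0.42) and 1.99-fold lower (-0.99), just inside the threshold in cord, and it passed 2-fold there with the authors' values (-1.02). Insig2, the other anchor, differed by -0.28 and -0.36, with -0.12 and -0.81 and with -0.32 and -0.27 at its other probes. Scap, the escort, differed by -0.13 and -0.02.

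The proteases that release SREBP showed no shared direction. Mbtps1, which encodes S1P, was at 2.83 and 2.80 in hindbrain and 2.38 and 2.80 in cord, differences of -0.03 and 0.42. A probe that overlaps it on the genome, A_55_P2047325, gave -0.09 and -0.01, and its dimmer probes gave -0.18 and 0.15 and, at the dimmest, -0.28 and 0.62. Mbtps2, which encodes S2P, differed by -0.07 and 0.06. Its dimmer probes gave -0.26 and 0.85 in hindbrain, and 0.19 and -0.05 in cord, and a further probe was above background on the wild-type hindbrain array alone, where it was at least 2.45-fold higher. The 7 regulators had a median of -0.13 in hindbrain and -0.02 in cord, beside -0.29 and -0.52 for the 19 enzymes, of which 17 were below 0 in each tissue.

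The genes of transport and disposal did not move as a group. Stard4, a carrier of cholesterol between membranes and a target of SREBP-2, stood at 0.18 in wild-type and 0.03 in transgenic hindbrain, and at 0.02 and -1.21 in cord. The transgenic cord was thus the low array of the 4, 2.34-fold below wild type (-1.23), and hindbrain differed by -0.15. Cyp46a1, the neuronal enzyme that makes 24-hydroxycholesterol for export from the brain, showed the same order, with -1.81 and -1.91 in hindbrain and -2.0 and -2.88 in cord (-0.09 and -0.87). Mylip, the ubiquitin ligase that removes lipoprotein receptors and is turned on by sterol-sensing LXR receptors, was at -0.31 and -0.05 in hindbrain and -0.31 and 0.24 in cord. It was the highest member in each tissue, 1.20-fold (0.26) and 1.46-fold (0.55) above wild type, and 85.5% and 83.1% of all genes stood below it.

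The same direction in both tissues was more frequent among members than over all genes. Both differences were below 0 for 22 of 29 members (75.9%), against 42.2% of 15708 genes, and both were above 0 for 2 members (6.90%), against 25%. The 2 comparisons share no array. The cord difference was the lower of the 2 for 21 members (72.4%, against 47.9%), and their median difference of differences, cord minus hindbrain, was -0.12 beside 0.03 over all genes. It was past 2-fold for Fdft1 (-1.11, but -0.74 at its second probe) and Stard4 (-1.08), 6.90% of the members against 5.08% of all genes. At the other end, Sc5d and Cyp51 differed between tissues by -0.01 each and Sqle and Lss by -0.07 each. Their other measured probes gave -0.36 for Sc5d, -0.12 for Cyp51, and 0.44 and -0.04 for Lss. These differences of differences were not tested.

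**Figure D3:**
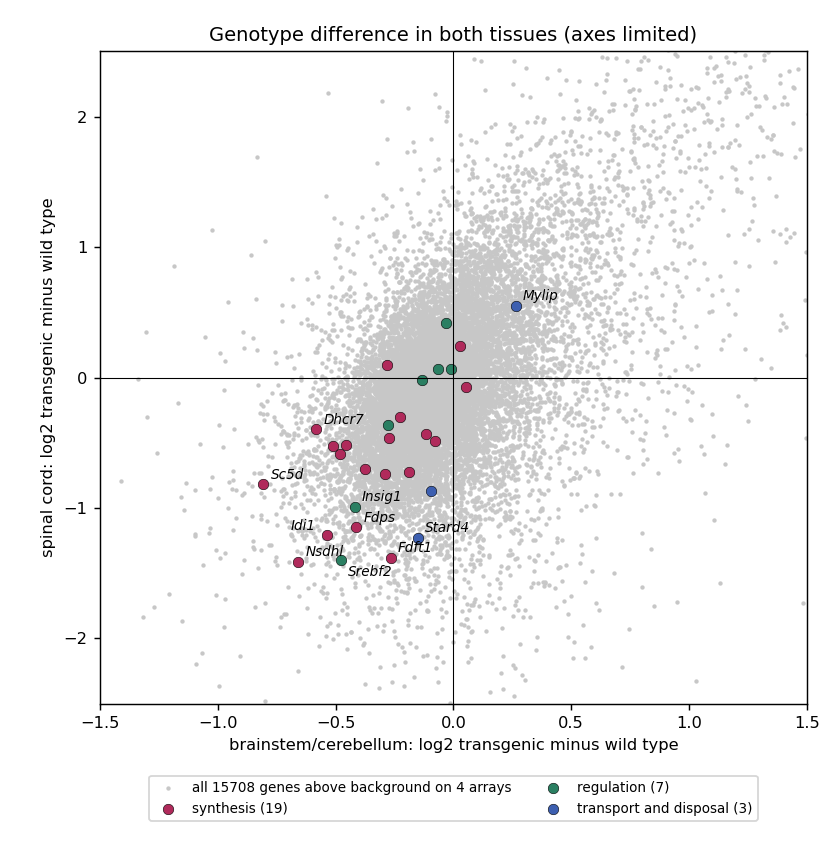
Genotype difference in hindbrain (x axis) against that in spinal cord (y axis), both log2 transgenic minus wild type, for 15708 genes (grey; the axes leave out the most extreme) and for the members coloured by role. The lower left holds 22 of 29 members, among them Sc5d at -0.81 and -0.82 and Nsdhl at -0.66 and -1.41, and the upper right holds Mylip at 0.26 and 0.55 and Lbr at 0.03 and 0.24.

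The comparison of tissues shares its arrays with the comparisons of genotype. In wild type, 19 of 29 members had a higher level in cord than in hindbrain, with a median of 0.11 beside -0.03 over all genes, and none was at least 2-fold higher (6.43% of all genes were) or lower (4.27%). The highest were Nsdhl (0.78), Srebf2 (0.77) and Fdft1 (0.71), and the lowest Mbtps1 (-0.45) and Ebp (-0.37). In the transgenic samples 14 members were higher in cord, with a median of -0.06 beside -0.02. None was 2-fold higher there (10.2% of all genes were), and Stard4 alone was 2-fold lower (-1.24; 6.13% were). Of the 19 enzymes, 16 were higher in wild-type cord and 10 in transgenic cord, with medians of 0.23 and 0.01. The wild-type comparison crosses the slides and the transgenic one does not. Oligodendrocyte markers had medians of 1.01 and 0.97 in the same 2 comparisons, with 6 of 12 at least 2-fold higher in cord in each.

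Other targets and neighbours of the pathway were read from lists of genes chosen by function. Of 15 lipogenic targets of SREBP, 12 were lower in transgenic hindbrain and 13 in transgenic cord at the probe standing for the gene. Over all genes 62.4% and 53.8% were below 0. The medians were -0.20 and -0.49, beside -0.08 and -0.05 over all genes. In cord the other probes of these targets ran from -1.56 to 0.73, and so do not share a direction. At the probes standing for the genes, 2 targets were at least 2-fold lower in cord, as were 6.31% of all genes. These were Thrsp, a lipogenic regulator, at 2.16 in wild-type and 0.35 in transgenic cord (-1.80), and Scd1, stearoyl-CoA desaturase, at 3.59 and 2.54 (-1.05). In hindbrain they differed by -0.19 and -0.17. Acss2, an acetyl-CoA synthetase, differed by -0.40 and -0.70.

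The branches that leave the pathway for dolichol, ubiquinone and prenylated proteins held no gene past 2-fold among 12, with medians of -0.16 and -0.20. The largest cord differences were those of Nus1 (0.65) and Pggt1b (0.57), for dolichol synthesis and geranylgeranylation, and of Dhdds, the partner of Nus1, at -0.38 (0.33 at its other probe). The 12 genes of SREBP and reductase turnover and of the NF-Y and Sp1 cofactors had medians of -0.09 and -0.01, again with none past 2-fold. Erlin2, an endoplasmic reticulum scaffold, differed by 0.70 in cord. Nfya, an NF-Y subunit, gave 0.51 in hindbrain and -0.77 in cord, and -0.05 and 0.99 at its other probe.

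Markers of cell types moved with genotype on the same arrays. All 12 oligodendrocyte markers were above background everywhere, and their summed level was 242 and 270 times the 75th percentile in wild-type and transgenic hindbrain and 447 and 446 in cord, with medians of 0.04 and 0.24. Of 9 neuronal markers 7 were lower in transgenic hindbrain and all 9 in transgenic cord at the probe standing for the gene (medians -0.22 and -0.61). Most of their other probes above background were also lower in cord, but the highest gave 0.66 in each tissue. The sum went from 593 in wild-type to 318 in transgenic cord. In cord Nefh (-1.41), Nefm (-1.35) and Nefl (-1.15, with -0.58 at its other probe), the neurofilament subunits, passed 2-fold. Microglial and macrophage markers went the other way, with 5 of 8 at least 2-fold higher in hindbrain and 6 of 8 in cord, and sums of 68.4 and 134 in hindbrain and 110 and 367 in cord. Of 8 astrocyte markers 5 were higher in transgenic hindbrain and 4 in transgenic cord, with medians of 0.20 and -0.002. In hindbrain 2 were 2-fold higher, Gja1 (1.95, with 0.50 and -0.28 at its other probes) and Gfap (1.43, with 0.81). In cord Gfap alone was 2-fold higher (1.08, with 0.40 at its other probe). As much lower there were 3: Slc7a10 (-3.68), Gja1 (-1.81, with -0.43 and -0.41 at its other probes) and Gjb6, named after its value was seen (-1.19). The astrocyte sums were 62.3, 77.9, 85.9 and 111, in the order wild-type and transgenic hindbrain, wild-type and transgenic cord. The part of these shifts in the differences of the pathway was not tested.

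**Figure D4:**
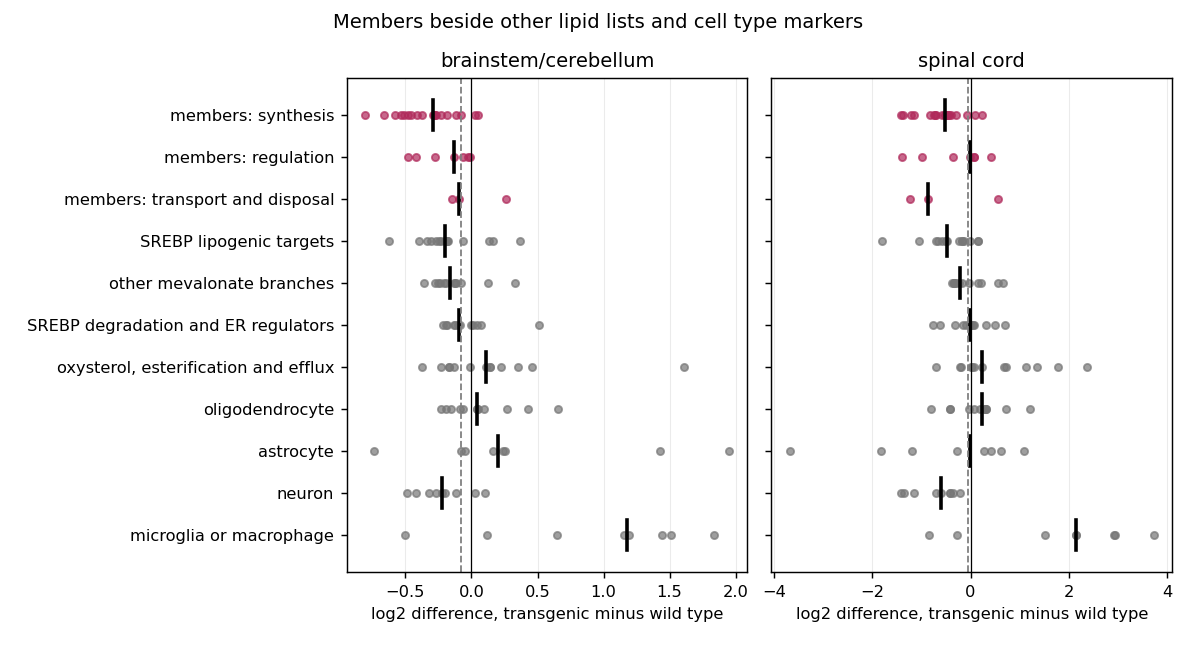
Genotype difference (x axis, log2 transgenic minus wild type; the panels have different ranges) of each gene in the 3 roles of the pathway (red) and in lists of related lipid genes and cell type markers (grey), in hindbrain (left) and spinal cord (right). Black bars are list medians and the dashed line is the median of all genes. The enzymes have medians of -0.29 and -0.52, and the microglial and macrophage markers 1.18 and 2.15.

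The values above depend on how the arrays are scaled to each other. With the 75th percentile, the member median minus the median of all genes was -0.20 in hindbrain and -0.47 in cord. Median and spike-in scaling move every gene of an array alike and so cannot change this gap. With quantile normalization, cyclic loess, normexp and the authors' values it ran from -0.14 to -0.15 in hindbrain and from -0.42 to -0.45 in cord. Scaling on the spike-in control probes moved the median of all genes in cord from -0.05 to -0.51 and that of the members from -0.52 to -0.98. With it, 28 members were below 0 in cord, among them Lbr, Ebp (-0.36), Srebf1 (-0.39), Mbtps1 (-0.04) and Mbtps2 (-0.39), and Mylip alone was above. Also with it, 13 members were at least 2-fold lower in cord, as were 19.3% of all genes, and the share of calls over all genes that were higher went from 57.4% to 20%. The 7 spike-in probes differed between the cord arrays by a median of 0.42 (range -0.19 to 0.66), and between the hindbrain arrays by -0.07.

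**Figure D5:**
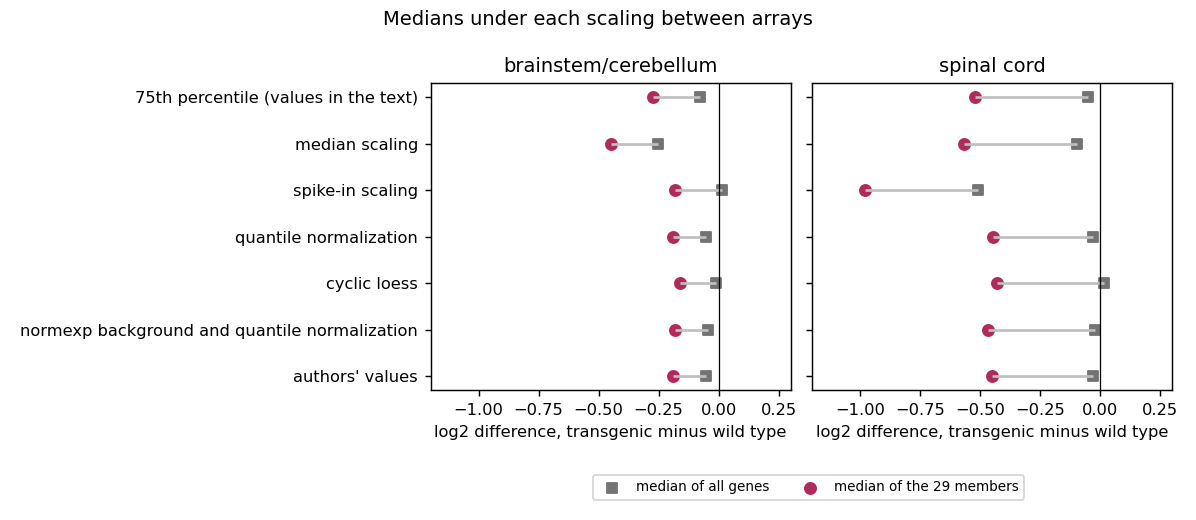
Median genotype difference (x axis, log2 transgenic minus wild type) of the 29 members (red circles) and of all genes (grey squares) under each scaling of the arrays or source of values, in hindbrain (left) and spinal cord (right). The red circle lies left of the grey square in every row, and with spike-in scaling both lie further left in cord, at -0.98 and -0.51.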

How the data were processed

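RNA of the 4 samples was labelled with Cy3 and hybridised to Agilent arrays, per the labels' protocols. The deposited scanner files hold intensities on a linear scale. Per the file headers, they were made with Feature Extraction 10.7.1.1 (9.5.1.1 in the submitters' processing notes), which subtracted background within each array, and probe coordinates are those of mm9. The authors' series table also holds linear intensities, with the same median of 30.4 on every array. How it was normalized is not stated in those sources, and its columns followed a quantile normalization of the scanner signals with Pearson correlations of 0.99999.

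Control spots and outlier spots (63 to 134 per array) were left out, spots of a probe were averaged, and each array's log2 values were centred on its 75th percentile, at a signal of 437 and 458 in wild-type and transgenic hindbrain and 678 and 410 in cord. Named genes are gene names of the files that are a symbol or a single synonym in the RefSeq table of GRCm38.p6, and the probe that was brightest on average stands for a gene. Counts cover genes with a probe well above background on each of the 2 arrays set against each other, and a call needs 2-fold. For a probe above background on 1 array, "at least" takes the other array at the higher of its own value and the lowest signal well above background. Technical SDs come from probes with 8 or more spots and from spike-in probes. The steps were tested on simulated data. Python 3.11.15, R 4.3.3 and limma 3.58.1 (quantile normalization, cyclic loess and normexp with an offset of 50) were used.

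Members, lists and alternatives were chosen with earlier results of these data known. Every member is named, and from each other list at most 3 genes by rule. These had the largest genotype difference in either tissue among genes above background on all 4 arrays. Besides them, Gjb6 and Lipa are marked as named after their values were seen. Alternatives were other scalings, background correction, dim-probe filters, probe rules, thresholds of 1.5-fold and 3-fold, and the authors' values. A slide block could not be fitted with 1 array per group. Some genes of the pathway or of these lists are not reported here.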

Additional observations from a re-analysis of the deposited data

Results flagged for a closer look

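A probe of Msmo1 that does not stand for its gene (A_65_P06678) was picked out because it went against the other Msmo1 probes: it was higher in transgenic than in wild-type hindbrain by at least 3.48 on the log2 scale, from not well above background to -1.76. In cord it differed by -0.21.

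For 3 probes, the genotype difference had opposite signs in hindbrain and cord, each beyond the technical SD. These differences between tissues were not tested. The dim second probe of Nsdhl (A_51_P146701) gave 0.43 in hindbrain and -1.28 in cord, a difference between tissues of -1.71, while the probe standing for the gene was below 0 in both. Ebp (A_51_P429682) gave -0.28 and 0.10, a difference of 0.38. A dim probe of Mbtps1 (A_52_P406482) gave -0.28 and 0.62, a difference of 0.90.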

How the results depend on the processing

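No paired analysis was possible because the labels carry no replicate numbers and each comparison sets 1 array against 1, and for the same reason no replicate could be left out. The member median stayed below 0 in hindbrain and in cord under each scaling, filter, probe rule and source of values that was run. In hindbrain, where it was -0.27, it was -0.16 with cyclic loess, -0.45 with median scaling, and -0.18 with normexp and with spike-in scaling. In cord, where it was -0.52, it was -0.43 with cyclic loess and -0.98 with spike-in scaling. In wild-type tissues (0.11) it was -0.009 with median scaling, which turns its sign, and 0.30 with spike-in scaling. In transgenic tissues (-0.06) it was -0.42 with spike-in scaling, and 0.02 with cyclic loess. Counts of members at least 2-fold lower in transgenic cord went from 6 (6.31% of all genes) to 13 with spike-in scaling (19.3%), to 13 at 1.5-fold (17.6%) and to 0 at 3-fold (1.67%). In transgenic hindbrain 2 members were at least 1.5-fold lower (2.37% of all genes), and between the wild-type tissues 3 were as much higher in cord (15.3%). Between the transgenic tissues the count of lower members went from 1 (6.13% of all genes) to 2 with the mean over probes. It was 3 with spike-in scaling (12.7%), 4 at 1.5-fold (14.5%) and 0 at 3-fold (2.42%). Over all genes the share of calls that were higher moved in hindbrain from 90.4% to 75.2% with median scaling. It moved in wild-type tissues from 60.1% to 48.8% with median scaling and 75.7% with spike-in scaling, and in transgenic tissues from 62.4% to 31.6% with spike-in scaling. Srebf2 was the member that lost its cord call, with the mean over probes (-0.70), where Tm7sf2 gained one (-1.03). Insig1 gained one with the authors' values (-1.02), quantile normalization (-1.02), median scaling (-1.04) and spike-in scaling (-1.45). No called member turned its sign. The cause of these changes was not tested. For the probes that stand for members the technical SD of a difference was 0.09 to 0.24.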

Other observations

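Genes that carry, esterify or sense surplus sterol did not follow the synthesis enzymes. Of 13 such genes, 7 were higher in transgenic hindbrain and 10 in transgenic cord, with medians of 0.11 and 0.22. At the probes standing for the genes, 1 in hindbrain and 4 in cord were at least 2-fold higher, with none as much lower. Over all genes 2.69% and 8.51% were as much higher. Ch25h, which makes 25-hydroxycholesterol and is known from macrophages, stood at -2.27 in wild-type and -0.66 in transgenic hindbrain, and at -1.43 and 0.93 in cord (1.61 and 2.36). Abca1, the cholesterol exporter, was at 0.74 and 1.09 in hindbrain and 0.39 and 2.17 in cord (0.35 and 1.79), and Npc2, the lysosomal sterol carrier, at 2.58 and 3.04 in hindbrain and 3.02 and 4.37 in cord (0.46 and 1.34). The other gene past 2-fold in cord, named after its value was seen, was Lipa, the lysosomal cholesteryl ester hydrolase (1.13). Markers of microglia and macrophages, with medians of 1.18 and 2.15, were higher on the same arrays, and their part in these values was not tested.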
